A study of Mus musculus with 4 samples.

Results

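Activating transcription factor 4 (Atf4), its partner factors and its established targets in amino acid uptake, serine and one-carbon metabolism were followed in F9 cells with and without a hairpin against Phf19. The 34 genes were taken by name, and every probe set listed with exactly 1 of these symbols was kept. For 33 of the 34 genes such probe sets were listed, 70 in all, out of 18193 genes and 45037 probe sets. Pycr1, which encodes a proline synthesis enzyme, had no probe set listed with it alone and is left out.

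F9 is a mouse embryonal carcinoma line. Both groups were infected with pLKO.1 lentivirus and selected with puromycin, so vector, infection and drug were common to them. The shVector group (2 arrays) carried the control vector, and the shPhf19 group (2 arrays) carried a hairpin against Phf19, a Polycomb-like subunit that joins Polycomb repressive complex 2. The labels call the 2 arrays of each group biological replicates. Neither the number of hairpins nor that of infections is stated, so each p-value reflects array-to-array spread within these groups only.

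Values are log2 signals of Affymetrix mouse 430 2.0 arrays, and differences are shPhf19 minus shVector. A gene is represented by its brightest probe set, and it passed when its limma p-value, adjusted by the Benjamini-Hochberg method over all 45037 probe sets, was under 0.05. Errors of differences are moderated standard errors (SE). Phf19 probe set 1427920_at read 6.07 and 6.14 in shVector and 5.08 and 5.17 in shPhf19, a change of -0.98 ± 0.10 (adjusted p = 0.0108). The brighter Phf19 probe set, 1431857_at, read 6.32 and 6.11 against 6.05 and 6.26 and did not pass (-0.06 ± 0.12, adjusted p = 0.928). Pou5f1 (13.8 to 13.9) and Sox2 (13.1 to 13.2), which mark undifferentiated cells, were above the arrays' upper quartile of 8.18 to 8.21 on all 4 arrays. None of the 6 markers of undifferentiated cells passed. Nanog was at -0.26 ± 0.05 (adjusted p = 0.0923), Sall4 at 0.17 ± 0.05 and Utf1 at 0.15 ± 0.06, each with groups that did not overlap. Over all genes, both shPhf19 arrays lay below both shVector arrays for 22.2% and above both for 21.3%. Pou5f1, Sox2 and Tdgf1 lay between 0.00 and 0.02. The 5 fibroblast and 4 hematopoietic markers lay between 3.11 and 6.28, and none of the 9 passed. In bulk RNA, fewer cells of a type and less RNA per cell cannot be told apart.

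Atf4 sits at the end of the integrated stress response. Kinases that sense amino acid shortage, unfolded protein, viral RNA or heme deficiency phosphorylate the initiation factor eIF2, which lowers general translation while the Atf4 messenger RNA is translated more. Atf4 pairs with C/EBP proteins on composite elements and drives genes for amino acid import, amino acid synthesis, transfer RNA charging and, in lasting stress, the factor CHOP (Ddit3). Much of this control is translational, so the messenger RNA of Atf4 is only part of its activity.

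The composite element bound by C/EBP and Atf4 partners was searched as TGATGNAA, on both strands, in the RefSeq promoter windows of build GRCm38.p6, which span 250 bases before to 50 bases after each gene start. Of the 34 members, 30 had a window, and 11 of these 30 (36.7%) held at least 1 match. The share was 3.24% among the 14452 genes of the array with a window and 4.51% among all 27025 genes in the table. A match is a description of letters and not a measured binding site. The members were taken as Atf4 partners and established targets, so their higher share is not independent evidence. Cth, Slc7a3, Slc7a5 and Slc1a5 had no entry.

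The stretches below are 60 bases long, upstream of the start, on the gene's strand, with the matches in capitals. They are shown because Inhbe and Slc7a11 had the largest falls of the members, whereas the other genes shown carry a match of the same kind and did not pass the test.
Slc7a11 (chr3:50443646-50443705, minus strand): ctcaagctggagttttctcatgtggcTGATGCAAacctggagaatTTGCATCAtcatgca
Inhbe (chr10:127351996-127352055, minus strand): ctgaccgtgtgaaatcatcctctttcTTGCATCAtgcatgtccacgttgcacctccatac
Atf3 (chr1:191183410-191183469, minus strand): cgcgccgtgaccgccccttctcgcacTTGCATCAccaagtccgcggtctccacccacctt
Chac1 (chr2:119351023-119351082, plus strand): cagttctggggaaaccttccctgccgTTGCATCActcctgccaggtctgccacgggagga
Asns (chr6:7693210-7693269, minus strand): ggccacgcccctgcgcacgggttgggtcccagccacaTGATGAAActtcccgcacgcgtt
Nupr1 (chr7:126625547-126625606, minus strand): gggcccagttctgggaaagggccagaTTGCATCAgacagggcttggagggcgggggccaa
Fgf21 (chr7:45615596-45615655, minus strand): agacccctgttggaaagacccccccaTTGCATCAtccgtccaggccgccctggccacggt

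Slc7a11 had 2 matches, 1 on each strand, whose first bases lie 66 and 47 bases before the start. The Inhbe match begins 181 bases before the start and that of Asns 23 bases before it. Matches were also present in windows of Vldlr, Pycr1, Trib3 and Slc1a4, the Trib3 match lying after the start and the Slc1a4 match crossing it. No match was found in the windows of Atf4, Atf5, Cebpb, Mthfd2 or Stc2, which says only that these letters are not there. Of the 8 genes that passed the test, 3 had a match, as did 8 of the 22 others with a window. Those 22 and 8 include Pycr1, which has a match but was not measured. The 10 measured members with a match had changes from -1.42 to -0.05 (median -0.37), and the 19 without one from -0.67 to 0.34 (median -0.22). Whether these medians differ was not tested.

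The Atf4 arm was lower in shPhf19 cells in part of its members. By representative probe set, 8 of the 33 measured genes fell, none rose and 25 did not pass, and across all genes 0.863% fell and 1.15% rose (2.02% together). The 8 were Inhbe, Slc7a11, Cebpb, Atf5, Stc2, Vldlr, Mthfd2 and Atf4 itself. The median change of the 33 was -0.26, against 0.00 over all genes (-0.0028 before rounding), and 29 of 33 changes were below 0, against 51% of all genes. At an unadjusted p under 0.05, limma gave 23 lower and 0 higher members, against 7.35% and 7.73% of all genes. An integrated stress list that overlaps these members had been seen to be low in earlier results on the same arrays, so the direction is not independent evidence.

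**Figure D1:**
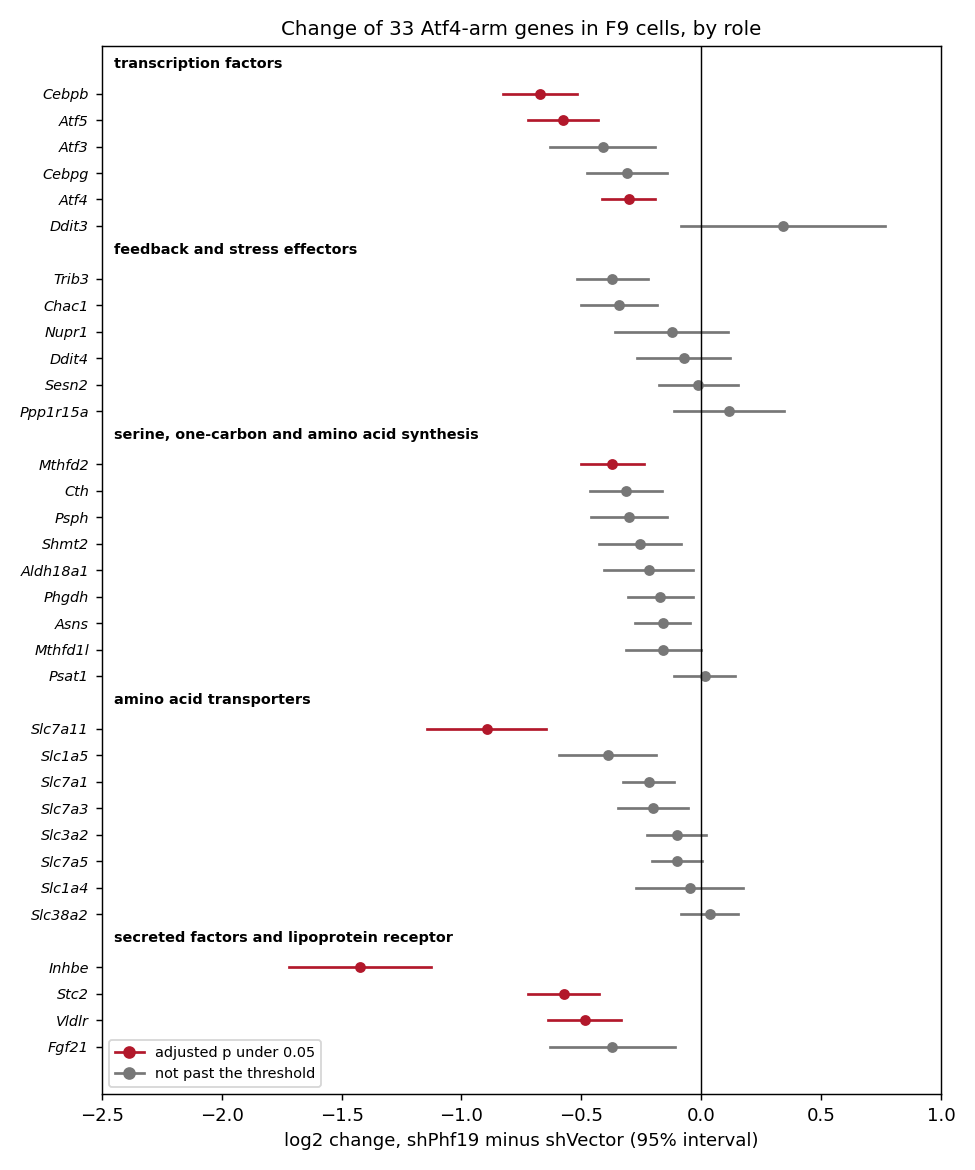
Log2 change (shPhf19 minus shVector, 2 arrays a group) of the 33 measured genes, grouped by role, with unadjusted 95% intervals from limma as bars; red marks the genes with an adjusted p under 0.05. The 8 red genes lie between -1.42 (Inhbe) and -0.30 (Atf4), and the highest point, Ddit3 at 0.34, has an interval that crosses 0.

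Both shPhf19 arrays lay below both shVector arrays for 25 of the 33 members, against 22.2% of all genes. They lay above both for 1 member, Ddit3, against 21.3% of all genes. The median size of the group difference was 0.30 among members. The median gap between replicate arrays was 0.10 in shVector and 0.07 in shPhf19, and for 25 members the group difference exceeded both of that gene's own replicate gaps, against 33% of all genes. Over all genes the median size of the group difference, 0.09, was no larger than the shVector gap of 0.11. On the 2 shPhf19 arrays taken singly, the median member stood at -0.27 and -0.26 relative to its shVector mean, with 30 and 27 of the 33 members below that mean. Both values are taken against the same shVector arrays.

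The array shVector replicate 1 had the strongest polyadenylated spike-in controls, at a mean of 8.42 against 7.95 to 8.23 on the other arrays. It read higher than shVector replicate 2 for 22 of the 33 members. It read lower for the other 11, and for 8351 of all 18193 genes. Without shVector replicate 1 the members' median change was -0.25. With any 1 array left out no member passed the adjusted threshold. Those fits rest on the spread of 1 group, with the lone array taken to vary like the other group, and over the whole array they called 0 probe sets as well.

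Among the 6 transcription factors, Atf4, Atf5 and Cebpb fell, and Atf3, Cebpg and Ddit3 did not pass. Atf4 read 12.87 and 12.81 in shVector and 12.53 on both shPhf19 arrays. The groups did not overlap, and the fall was small, 1.23-fold (-0.30 ± 0.05, adjusted p = 0.0369, 95% interval -0.41 to -0.19). Without an array its change ran from -0.33 (without shVector replicate 2) to -0.28 (without shVector replicate 1), and its adjusted p from 0.154 to 0.827. The other Atf4 probe sets did not pass, at -0.17 ± 0.06 and -0.17 ± 0.10, the second of them dim at 4.83 to 5.14. The mean of the gene's probe sets fell short of the threshold too (-0.21, limma adjusted p = 0.112).

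Atf5, a paralog of Atf4 that is translated under the same control, read 11.07 and 11.02 in shVector and 10.44 and 10.49 in shPhf19. It fell 1.49-fold (-0.58 ± 0.06, adjusted p = 0.0139) with groups far apart relative to their replicates. Cebpb, a C/EBP factor that dimerises with Atf4, read 10.77 and 10.83 against 10.09 and 10.17. It fell 1.59-fold (-0.67 ± 0.06, adjusted p = 0.0107), and its second probe set fell by a like amount (-0.69 ± 0.08, adjusted p = 0.0169). Both shPhf19 arrays were low for either probe set.

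Cebpg, which encodes another dimerisation partner, read 9.51 and 9.48 against 9.21 and 9.16 (-0.31 ± 0.07, adjusted p = 0.118). Atf3, a stress-induced repressor and Atf4 target, read 8.45 and 8.35 against 7.92 and 8.07 (-0.41 ± 0.09, adjusted p = 0.113). Neither overlapped between groups and neither passed.

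Ddit3, which encodes the pro-apoptotic factor CHOP, was the member with the highest change. It read 8.59 and 8.02 in shVector and 8.59 and 8.69 in shPhf19, a change of 0.34 ± 0.18 (adjusted p = 0.514, 95% interval -0.08 to 0.76). Here 1 control array decided the value, since shVector replicate 2 was low and shVector replicate 1 was level with the shPhf19 arrays. The change was 0.06 without shVector replicate 2 and 0.63 without shVector replicate 1, and the gap between the shVector arrays (0.57) exceeded the group difference. The second Ddit3 probe set, 1443897_at, was dimmer and stood at -0.14 ± 0.13.

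**Figure D2:**
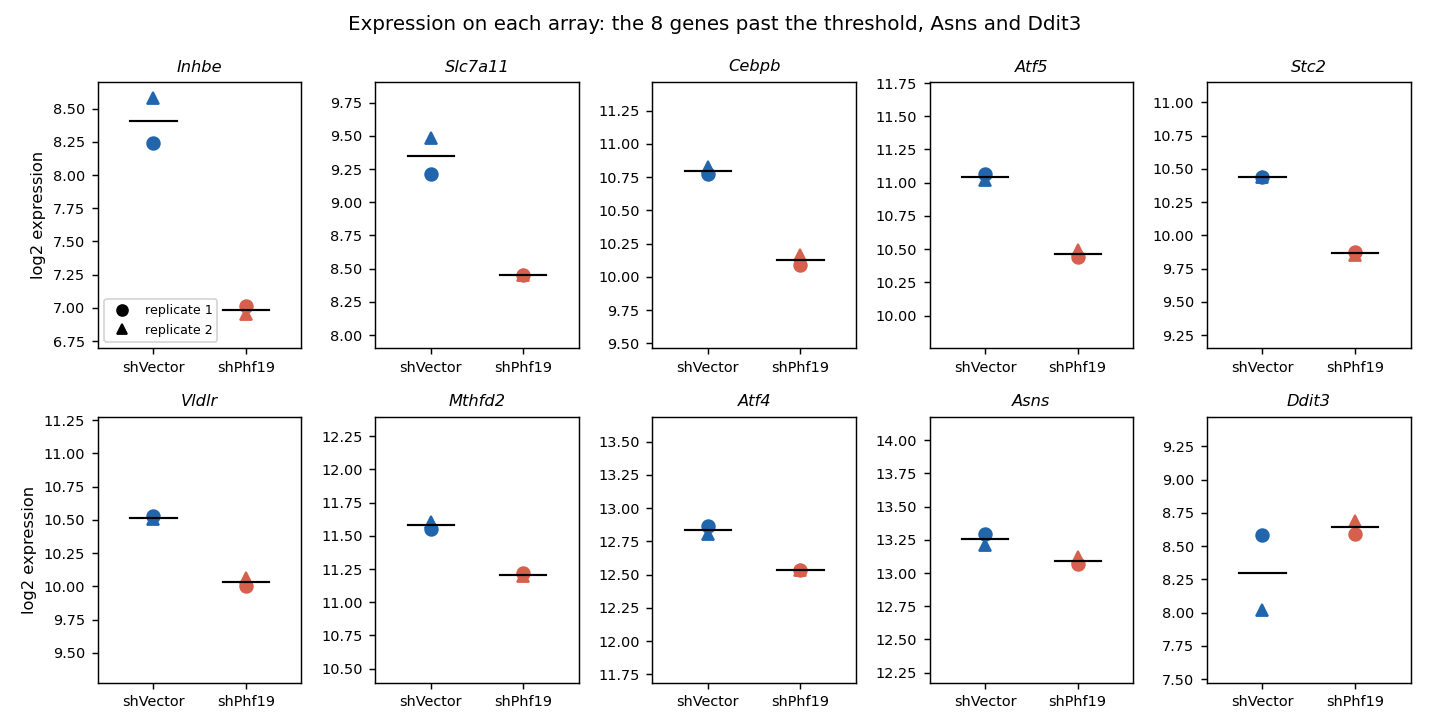
Log2 expression on each array (circle, replicate 1; triangle, replicate 2; line, group mean) for the 8 genes that fell, Asns and Ddit3; each panel spans 2 log2 units. For the 8 genes both shPhf19 points lie below both shVector points, whereas for Ddit3 the shVector points are 0.57 apart and 1 of them is level with the shPhf19 points.

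None of the 6 feedback and stress effectors passed. Trib3, a pseudokinase that feeds back on Atf4, came nearest, at 11.40 and 11.38 against 10.96 and 11.08 (-0.37 ± 0.06, adjusted p = 0.0503). Its second probe set stood at -0.35 ± 0.07 (adjusted p = 0.0861). Under quantile normalization Trib3 passed (adjusted p = 0.0401), as it did under median centring (0.0451), and the adjusted p ran from 0.0305 to 0.854 over all alternatives. Chac1, which degrades glutathione, read 11.04 and 10.95 against 10.61 and 10.69 (-0.34 ± 0.07, adjusted p = 0.0765).

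The other 4 effectors had overlapping groups by their representative probe sets. Ppp1r15a, the phosphatase subunit GADD34 that reverses eIF2 phosphorylation, stood at 0.12 ± 0.10. The mTORC1 inhibitors Ddit4 and Sesn2 stood at -0.07 ± 0.08 and -0.01 ± 0.07, and the chromatin-associated stress protein gene Nupr1 at -0.12 ± 0.10. Intervals of these changes spanned 0, from -0.11 to 0.35 for Ppp1r15a and from -0.27 to 0.12 for Ddit4, so changes of that size remain possible. Without shVector replicate 1, Nupr1 moved to 0.01 and Ddit4 to 0.04.

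Of the 9 measured synthesis enzymes, 1 fell, and 8 of the 9 changes were below 0. Mthfd2, the mitochondrial folate dehydrogenase and cyclohydrolase, read 11.55 and 11.61 against 11.22 and 11.20. It fell 1.29-fold (-0.37 ± 0.05, adjusted p = 0.0344), and its second probe set was at -0.24 ± 0.06 (adjusted p = 0.137) with groups that did not overlap. Shmt2, the mitochondrial serine hydroxymethyltransferase that feeds Mthfd2, did not pass by any of its 4 probe sets, which stood between -0.42 and -0.23. The representative one read 12.70 and 12.53 against 12.30 and 12.42 (-0.26 ± 0.07, adjusted p = 0.194). The one with the smallest p, 1426423_at, read 10.76 and 10.71 against 10.24 and 10.39 (-0.42 ± 0.07, adjusted p = 0.0531). Mthfd1l, which acts after Mthfd2 to release formate, was at -0.16 ± 0.06.

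Phgdh, Psat1 and Psph encode the enzymes of serine synthesis in that order, and none passed. Phgdh was at -0.17 ± 0.06, Psat1 at 0.02 ± 0.05 and Psph at -0.30 ± 0.07 (adjusted p = 0.112). The second Psat1 probe set was at -0.17 ± 0.06. The 4 Phgdh probe sets lay between -0.25 and -0.09, and 2 further ones listed for Phgdh together with another gene were left out. Asns, asparagine synthetase, is a classic Atf4 target. It read 13.29 and 13.21 in shVector and 13.07 and 13.12 in shPhf19, a change of -0.16 ± 0.05 (adjusted p = 0.223) that its second probe set matched (-0.15 ± 0.04, adjusted p = 0.18). The shPhf19 arrays were below the shVector arrays for Asns, but its interval, -0.28 to -0.05, limits a fall to about 1.21-fold on this scale. Cth, which makes cysteine from cystathionine, was at -0.31 ± 0.06 (adjusted p = 0.0838), and Aldh18a1 of proline synthesis at -0.22 ± 0.08.

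Among the 8 amino acid transporters, Slc7a11 alone passed. Slc7a11, the light chain of the cystine and glutamate exchanger, read 9.21 and 9.48 in shVector and 8.46 on both shPhf19 arrays. It fell 1.86-fold (-0.89 ± 0.10, adjusted p = 0.0169, 95% interval -1.14 to -0.65). Its second probe set, 1420413_at, read 7.76 and 7.95 against 7.26 and 7.13 and fell as well (-0.67 ± 0.10, adjusted p = 0.0398). The shPhf19 arrays were low in both readings.

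Slc3a2, the heavy chain that partners Slc7a11 and Slc7a5, was at -0.10 ± 0.05, and the leucine transporter gene Slc7a5 also at -0.10 ± 0.04. The cationic amino acid transporter genes Slc7a1 (-0.22 ± 0.04, adjusted p = 0.0896) and Slc7a3 (-0.20 ± 0.06) did not pass, nor did Slc1a5, a glutamine carrier (-0.39 ± 0.08, adjusted p = 0.105). For Slc7a1, probe set 1454992_at came nearer the threshold (-0.30 ± 0.05, limma adjusted p = 0.0612), and the dim 1421533_at was at -0.04 ± 0.10. Slc1a4 (-0.05 ± 0.09) and Slc38a2 (0.03 ± 0.05), carriers of small neutral amino acids, had overlapping groups in all 3 probe sets of each gene. For Slc38a2 the 95% interval ran from -0.08 to 0.15. Whether Slc7a11 changed by more than the other transporters was not tested.

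The remaining 4 genes encode secreted factors and a lipoprotein receptor, and 3 of them fell. Inhbe, which encodes the inhibin beta E subunit of activin E, had the largest change of all members. It read 8.24 and 8.58 in shVector and 7.01 and 6.96 in shPhf19, a fall of 2.68-fold (-1.42 ± 0.12, adjusted p = 0.00863, 95% interval -1.72 to -1.13). Its 2 control arrays differed by 0.33, and without an array the change ran from -1.59 (without shVector replicate 1) to -1.26 (without shVector replicate 2), and the limma adjusted p from 0.0949 to 0.692. Stc2, which encodes the secreted glycoprotein stanniocalcin 2, read 10.44 on both shVector arrays and 9.88 and 9.85 in shPhf19 (-0.57 ± 0.06, 1.49-fold, adjusted p = 0.0147). The other Stc2 probe sets were lower without passing, at -0.44 ± 0.09 and -0.27 ± 0.08.

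Vldlr, the very low density lipoprotein receptor gene, was read by 6 probe sets, of which 4 passed. The representative probe set read 10.53 and 10.50 against 10.00 and 10.06 (-0.49 ± 0.06, 1.40-fold, adjusted p = 0.0242). Its name ends in _x_at, a suffix of probe sets that can also hybridise to related transcripts, but the 3 other passing probe sets do not carry it. Of these, 1442169_at had the largest change, from 7.16 and 6.96 to 5.97 and 6.21 (-0.97 ± 0.12, adjusted p = 0.0223). All 6 Vldlr probe sets had both shPhf19 arrays below both shVector arrays. The _x_at suffix also marks the representative probe sets of Trib3, Asns, Phgdh, Shmt2 and Aldh18a1. Fgf21, a secreted metabolic hormone, lay near the array median of 5.75 to 5.77, at 5.82 and 5.68 against 5.46 and 5.29, and did not pass (-0.37 ± 0.11, adjusted p = 0.217).

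**Figure D3:**
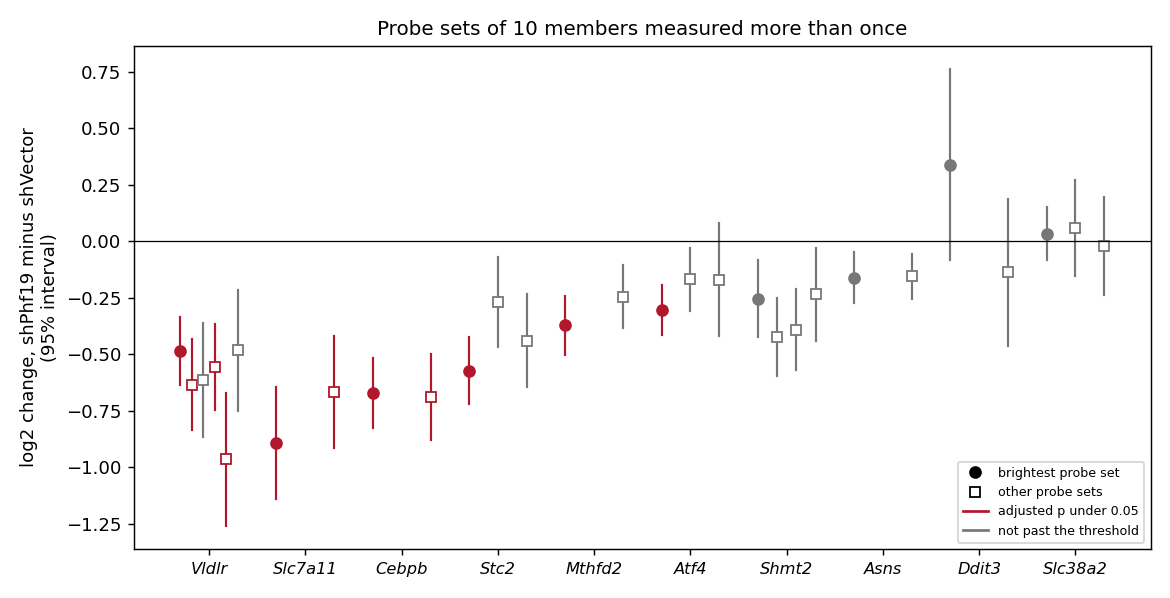
Log2 change with unadjusted 95% interval for each probe set of 10 members that have more than 1 (filled circle, the brightest probe set, which represents the gene; open square, the others; red, adjusted p under 0.05). The 6 Vldlr probe sets lie between -0.97 and -0.48, the 2 Slc7a11 probe sets at -0.89 and -0.67, and the 3 Slc38a2 probe sets between -0.02 and 0.06.

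Over single probe sets, 13 of the 70 were lower past the threshold and 0 higher (0 higher also at an unadjusted p under 0.05), against 0.582% and 0.83% of all probe sets (1.41% in either direction). Of the 70, 65 had a change below 0, against 51.8% of all probe sets, and 53 had both shPhf19 arrays below both shVector arrays, against 21% of all probe sets. Probe sets of 1 gene share their transcript and are not separate evidence. Of the 20 members with more than 1 probe set, 4 (Atf4, Mthfd2, Stc2 and Vldlr) had some probe sets that passed and some that did not. For none of these 4 did a probe set lie above 0.

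Neighbouring lists were read in the same fit. Among 15 measured further Atf4 targets 2 fell, none rose and 13 were below 0, with a median of -0.23. Across all genes 0.863% fell, 1.15% rose and 51% were below 0. Gpt2, the mitochondrial alanine transaminase, read 11.71 and 11.77 against 11.15 and 11.25 (-0.54 ± 0.06, adjusted p = 0.0154). Jdp2, a repressor of the AP-1 family, read 11.40 and 11.36 against 10.89 and 10.98 (-0.44 ± 0.06, adjusted p = 0.0264). Both had non-overlapping groups. Aldh1l2, the mitochondrial 10-formyltetrahydrofolate dehydrogenase, was at -0.41 ± 0.07 (adjusted p = 0.0564), and Pck2, the mitochondrial phosphoenolpyruvate carboxykinase, at -0.38 ± 0.07 (adjusted p = 0.0643). Aldh1l2 and Pck2 were chosen after their values were seen, and Herpud1 came nearer the threshold (-0.48 ± 0.08, adjusted p = 0.0541). The 2 genes above 0 were Klhl24 (0.20 ± 0.10) and Got1 (0.08 ± 0.09).

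None of the 19 measured cytosolic aminoacyl-tRNA synthetases passed, and 16 of the 19 changes were below 0 (median -0.13), against 51% of all genes. The smallest p-values belonged to Rars (-0.22 ± 0.04, adjusted p = 0.0807) and Nars (-0.18 ± 0.04, adjusted p = 0.118), which charge arginine and asparagine transfer RNAs. At an unadjusted p under 0.05, limma gave 8 lower and 0 higher, against 7.35% and 7.73% of all genes. Of the 13 synthetases with a promoter window, 5 held a TGATGNAA match, against 3.24% of the array's genes with a window. Since Atf4 is known to drive transfer RNA charging genes, that share is not independent evidence either.

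Genes upstream of Atf4 had a median change of 0.01 in messenger RNA. Of 19 measured genes for eIF2 kinases and translation control none passed and 9 were below 0, against 51% of all genes. By limma, 1 was lower and 1 higher at an unadjusted p under 0.05, against 7.35% and 7.73% of all genes. The 4 eIF2 kinases, Eif2ak1 to Eif2ak4, lay between -0.05 and 0.02. The smallest p-values belonged to Eif2b2, a subunit of the eIF2 exchange factor (-0.17 ± 0.06, adjusted p = 0.282), and Eif2a, an alternative initiation factor (0.19 ± 0.06, adjusted p = 0.283). Phosphorylation of eIF2 was not measured.

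The folate cycle and glycine cleavage genes outside the members had a median of 0.00 (-0.0021 before rounding), and none of 15 passed. At an unadjusted p under 0.05, limma gave 0 lower and 1 higher, against 7.35% and 7.73% of all genes. The list's cytosolic enzymes Shmt1 (-0.02 ± 0.05) and Mthfd1 (0.00 ± 0.05), chosen for their mitochondrial counterparts Shmt2 and Mthfd2 after the values were seen, lay near 0. The smallest p-values belonged to Gldc, the glycine decarboxylase (0.18 ± 0.07), and Mthfd2l, a paralog of Mthfd2 (0.39 ± 0.17, adjusted p = 0.409).

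Of 15 genes of glutathione synthesis and targets of Nrf2, a factor that also induces Slc7a11, none passed and the median was -0.08. Changes were below 0 for 11 of the 15, against 51% of all genes. At an unadjusted p under 0.05, limma gave 3 lower and 2 higher, against 7.35% and 7.73% of all genes. Gclm, the modifier subunit of glutamate-cysteine ligase, was at -0.27 ± 0.06 (adjusted p = 0.11) and malic enzyme 1 (Me1) at -0.32 ± 0.07. The catalytic subunit gene Gclc, named after its value was seen, was at 0.26 ± 0.09. The 2 ligase subunits thus had changes of opposite sign, neither past the threshold.

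**Figure D4:**
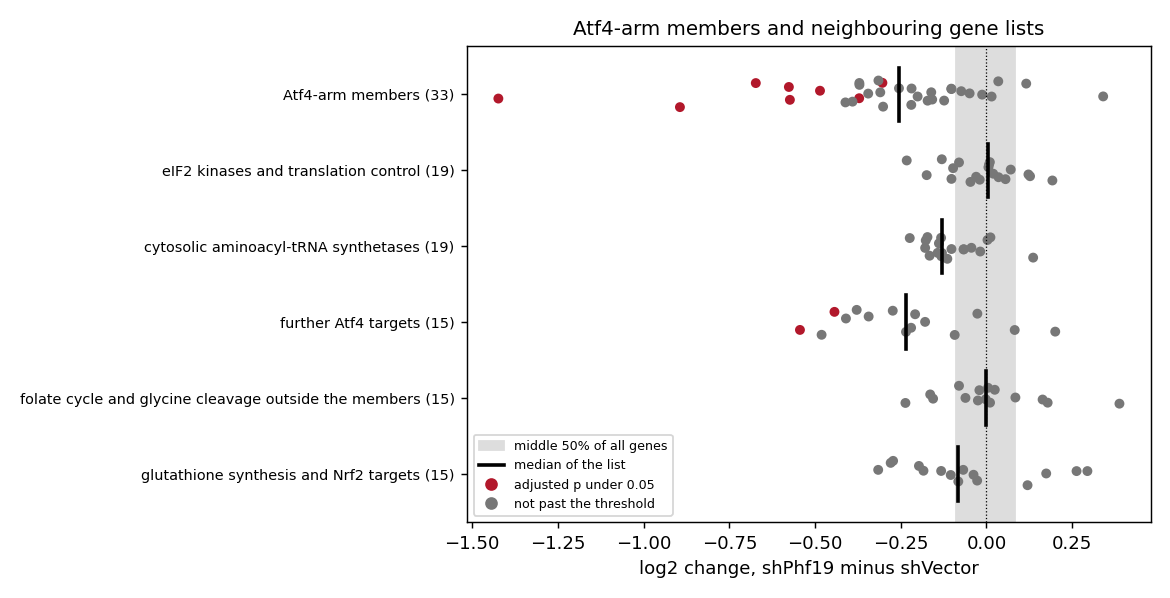
Log2 change of each gene (points; red, adjusted p under 0.05) in the members and 5 neighbouring lists, with the list's median as a black line and the number of measured genes in brackets; the grey band holds the middle 50% of all genes. The medians of the members (-0.26), of the further Atf4 targets (-0.23) and of the synthetases (-0.13) lie left of the band, and those of the eIF2 list (0.01), the folate list (0.00) and the glutathione list (-0.08) lie inside it.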

How the data were processed

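The authors deposited 1 value per probe set and array, read here as log2 expression: the highest, 14.5, exceeds the natural log of a 16-bit maximum (11.1). Array medians were close, at 5.75 to 5.77, and the deposited log2 values were taken as already normalized between arrays. This was read from the values only. No source used here names the software, probe summary or background correction, and no detection calls were used. Such summaries can compress fold changes.

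Of 45101 probe sets, 64 controls were left out. GEO's platform annotation gave 1 gene symbol for 34945, several for 932 and none for 9160. A RefSeq table of GRCm38.p6 held 34741 of the gene numbers and changed 0 symbols. The comparison used lmFit and eBayes with an intensity trend (limma 3.58.1, R 4.3.3), two-sided, with Benjamini-Hochberg adjustment over 45037 probe sets. The 2 residual degrees of freedom rose to a median of 6.51 in the moderated test. The test was checked on simulated data. There it called 6 of 50 changes of 0.5 log2 and 46 of 50 changes of 1 log2. Of 44837 unchanged probe sets it called 6. The simulated spread was drawn from the test's own fitted variance model, with independent normal noise. The check therefore cannot show how the test performs on the real arrays.

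The members and lists were chosen with earlier results of these data known. Members with any passing probe set, Atf4, Ddit3, Asns and the member with the highest change are given on every array, and per list up to 4 passing genes a direction, or the 2 with the smallest p. Promoter windows were searched in Python 3.11.15. Alternatives were no variance trend, quantile normalization, median centring, 2 filters on dim probe sets, the mean of a gene's probe sets, a replicate block and leaving out each array.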

Additional observations from a re-analysis of the deposited data

How the results depend on the processing

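Of the 8 members that passed, all 8 passed again with quantile normalization (9 members in all), median centring (9), and the lowest 25% (9) or 50% (10) of probe sets left out, and 7 of the 8, all but Atf4, with the mean of a gene's probe sets (11). Without an intensity trend 5 passed (Atf5, Cebpb, Inhbe, Slc7a11 and Stc2). Calls changed over the whole array too. Lower calls, 262 of 45037 probe sets in the main fit, became 364 with quantile normalization, 293 with median centring and 151 without a trend. They were 320 of 33778 and 352 of 22519 probe sets with the lowest 25% and 50% left out. Of 18193 genes, 261 were called lower with the mean of probe sets, against 157 by representative probe set. No called member changed sign under any alternative that was run. The members' median was -0.24 without the lowest 50% of probe sets, -0.22 with the mean of probe sets, and between -0.27 and -0.25 without 1 array, with 27 to 30 of the 33 members below 0. Calls in the neighbouring lists, 2 lower genes, became 4 with median centring, 4 and 6 with the lowest 25% and 50% left out, 7 with the mean of probe sets and 0 without a trend. Leaving out any 1 array gave 0 called member genes, 0 member probe sets and 0 list genes (0 to 0 over the 4 arrays). The labels do not say whether same-numbered arrays were prepared as pairs. Deviations of same-numbered arrays correlated at -0.197, which with 2 arrays a group cannot decide it. With the replicate block limma called 0 member genes, 0 member probe sets and 0 list genes, and it called 0 of all 45037 probe sets. At an unadjusted p under 0.05, it gave 18 member genes, 36 member probe sets and 14 list genes lower, and 0, 0 and 1 higher. At that threshold it gave 3890 of all 45037 probe sets in either direction. A block with crossed numbers, added after seeing the data, called 10 member genes, 16 member probe sets and 3 list genes, all lower. Over all 45037 probe sets that crossed fit called 259 lower and 337 higher. The number of arrays, 2 a group, limits the precision of every value.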
